A study of Mus musculus with 22 samples.

Results

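The 7 genes Hmgcs1, Idi1, Fdps, Fdft1, Sqle, Lss and Cyp51, which encode enzymes of cholesterol synthesis, were taken by symbol from a table of 23420 genes, and all 7 were among the 14458 genes that passed the filter on low counts. The table comes from RNA-sequencing of inguinal white adipose tissue (IWAT) of 11 wildtype female C57Bl/6 mice, and the study used it to ask how fat tissue next to a breast tumor differs from fat tissue away from it in lean and in obese animals. Lean mice (n = 5) had eaten regular chow and obese mice (n = 6) high fat diet (HFD) for 16 weeks. At an age of about 20 weeks each mouse received E0771 cells, a breast cancer line from the same strain, in Matrigel and PBS in the left inguinal pad (tumor-associated IWAT) and Matrigel and PBS without cells in the right pad (control IWAT), and both pads were taken 2 weeks later, giving 22 libraries in 4 groups. All 4 groups therefore come from tumor-bearing mice, and control IWAT is not tissue of a tumor-free animal. From the tumor-associated pad the lymph node and the tumor were taken out and the fat that covered the tumor was discarded.

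Cells build cholesterol from acetyl-CoA. Hmgcs1 makes HMG-CoA, which is reduced to mevalonate, and after phosphorylation and decarboxylation Idi1 interconverts the resulting isoprene units. Fdps joins these units to farnesyl diphosphate, from which protein prenylation, dolichol and ubiquinone synthesis branch off, and Fdft1 (squalene synthase) commits farnesyl diphosphate to sterols. Sqle oxidizes squalene, Lss closes it to lanosterol and Cyp51 removes a methyl group from lanosterol. The transcription factor SREBP2, encoded by Srebf2, is released from the endoplasmic reticulum when membrane cholesterol is low and turns these genes on together, while SREBP1, encoded by Srebf1, mainly drives fatty acid synthesis. White fat stores a large share of the cholesterol of the body, mostly unesterified in the lipid droplets of adipocytes, and takes much of it up from lipoproteins.

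The members lie on 6 chromosomes (GENCODE M21 on GRCm38). Hmgcs1 spans chr13:119690379-119708260 on the plus strand and Idi1 chr13:8885501-8892451 on the plus strand of the same chromosome. Fdps lies at chr3:89093588-89101959 (minus), Fdft1 at chr14:63145150-63179578 (minus), Sqle at chr15:59315077-59331192 (plus), Lss at chr10:76531588-76557138 (plus) and Cyp51 at chr5:4081145-4104746 (minus). All are protein coding, and 6 of the 7 share exon bases with an annotated neighbor. The strand setting of the counting is not stated, so reads from such stretches cannot be assigned with certainty. Fdft1 shares 774 exon bases with Ctsb, which encodes a lysosomal protease and lies on the opposite strand, and it has a near-identical copy, Gm6781, with 97.4% identity over 1249 bases. Fdps shares 1124 exon bases with Gm43738 on its own strand, Idi1 matches Gm13502 at 100% over 684 bases, and Sqle shares no exon base with another gene.

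Promoters are shown for Hmgcs1, Lss and Cyp51 because Lss and Cyp51 moved with most of the members between obese and lean control pads and Hmgcs1 did not. The sequences are the 250 bases before the RefSeq start site (GRCm38.p6), 5′ to 3′ along the gene, and the RefSeq table held 4 of the 7 members (Hmgcs1, Idi1, Lss and Cyp51). Capitals mark CCAAT on either strand (printed as ATTGG where it lies on the other strand), the letters bound by NF-Y, and TCACNCCAC, a form of the sterol regulatory element that SREBPs bind. Positions count back from the start site.
Hmgcs1 promoter, chr13:119690101-119690350, plus strand: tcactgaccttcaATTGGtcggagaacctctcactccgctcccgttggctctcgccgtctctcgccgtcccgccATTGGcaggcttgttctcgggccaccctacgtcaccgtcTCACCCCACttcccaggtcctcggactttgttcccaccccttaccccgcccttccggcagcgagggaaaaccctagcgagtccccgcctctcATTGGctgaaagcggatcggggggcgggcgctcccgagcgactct
Lss promoter, chr10:76531355-76531604, plus strand: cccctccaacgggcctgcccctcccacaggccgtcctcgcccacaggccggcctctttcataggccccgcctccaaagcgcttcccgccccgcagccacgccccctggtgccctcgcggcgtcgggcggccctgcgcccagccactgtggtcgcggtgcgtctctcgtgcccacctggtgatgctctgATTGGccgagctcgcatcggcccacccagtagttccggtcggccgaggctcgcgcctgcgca
Cyp51 promoter, chr5:4104698-4104947, minus strand: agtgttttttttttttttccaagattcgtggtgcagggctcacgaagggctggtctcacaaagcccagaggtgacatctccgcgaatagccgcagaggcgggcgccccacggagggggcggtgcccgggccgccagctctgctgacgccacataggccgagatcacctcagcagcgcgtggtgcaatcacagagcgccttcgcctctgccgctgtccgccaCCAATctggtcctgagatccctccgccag
CCAAT was present in 4 of the 4 member promoters and in 9 of the 11 promoters of other sterol synthesis enzymes in the table, against 33.8% of all 32851 promoters of the same length. Hmgcs1 held it at 3 places and was the only one of the 4 members searched with TCACNCCAC, at -137 to -129, a motif that 1.05% of all promoters held. The E-box CACGTG, which SREBP1 can also bind, was in 0 of the 4 against 6.02% of all promoters. These are matches of letters in a short window, searched on both strands, and TCACNCCAC and CCAAT did not overlap each other.

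Counts on genes ran from 5759775 to 8598108 per library. Expression is given as CPM, counts per 1000000 of the TMM-normalized library total. Changes are log2 fold changes with their standard error (SE) from edgeR's quasi-likelihood test over all 14458 genes, called at a Benjamini-Hochberg adjusted p under 0.05. Adipocyte markers were present in every group, with a summed CPM of 7 markers from 8488 to 11171 in lean control, 5269 to 8531 in lean tumor-associated, 12162 to 21926 in obese control and 1703 to 10554 in obese tumor-associated libraries. Some libraries stood apart. Obese control mice 1 and 3 held B cell markers (484 and 430 CPM summed, at most 12.0 in the other obese control libraries) and T cell markers, and mouse 1 muscle markers (1977 CPM). The obese tumor-associated libraries of mice 0, 2 and 4 held the most proliferation markers and the most germline and embryonic transcripts, a list of 10 genes that earlier work picked on these libraries. Counts of calls that change without these libraries are given beside them. Smaller B cell sums stood out in obese tumor-associated mouse 3 (118 CPM) and lean control mouse 2 (58.6 CPM), and muscle markers in obese tumor-associated mouse 8 (191 CPM). These libraries were left out only 1 at a time. In bulk tissue a smaller number of cells of a type and less RNA per cell cannot be told apart.

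Per kilobase of exon, Hmgcs1 was the most abundant member in each group, at 73.3 ± 21.8 CPM per kb (SD, n = 5) in lean control and 86.1 ± 23.1 CPM per kb (SD, n = 6) in obese control IWAT. Fdft1 and Cyp51 followed in lean control IWAT with 16.2 ± 4.33 and 16.0 ± 7.82 CPM per kb (SD, n = 5), which did not differ beyond their spread. Fdps (11.7 ± 5.41), Sqle (9.86 ± 4.09), Lss (5.96 ± 3.04) and Idi1 (4.30 ± 2.11 CPM per kb, SD, n = 5) came next, each within the spread of its neighbor. In obese tumor-associated IWAT the order after Hmgcs1 (51.5 ± 16.3) was Cyp51 (11.7 ± 2.71), Fdps (11.4 ± 3.63), Sqle (8.09 ± 3.65), Fdft1 (6.34 ± 1.07), Idi1 (3.06 ± 0.815) and Lss (2.94 ± 0.618 CPM per kb, SD, n = 6), so that Fdft1 came behind Cyp51, Fdps and Sqle there. The length was that of all annotated exons merged, 10787 bases for Lss and 3505 to 5546 for the others, so the place of Lss depends on it. In CPM alone Lss (64.3 ± 32.7) stood above Sqle (54.7 ± 22.7) and Fdps (49.2 ± 22.8, SD, n = 5) in lean control IWAT, within their spread. Idi1 rests on the fewest reads, 43 to 153 counts per library.

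**Figure D1:**
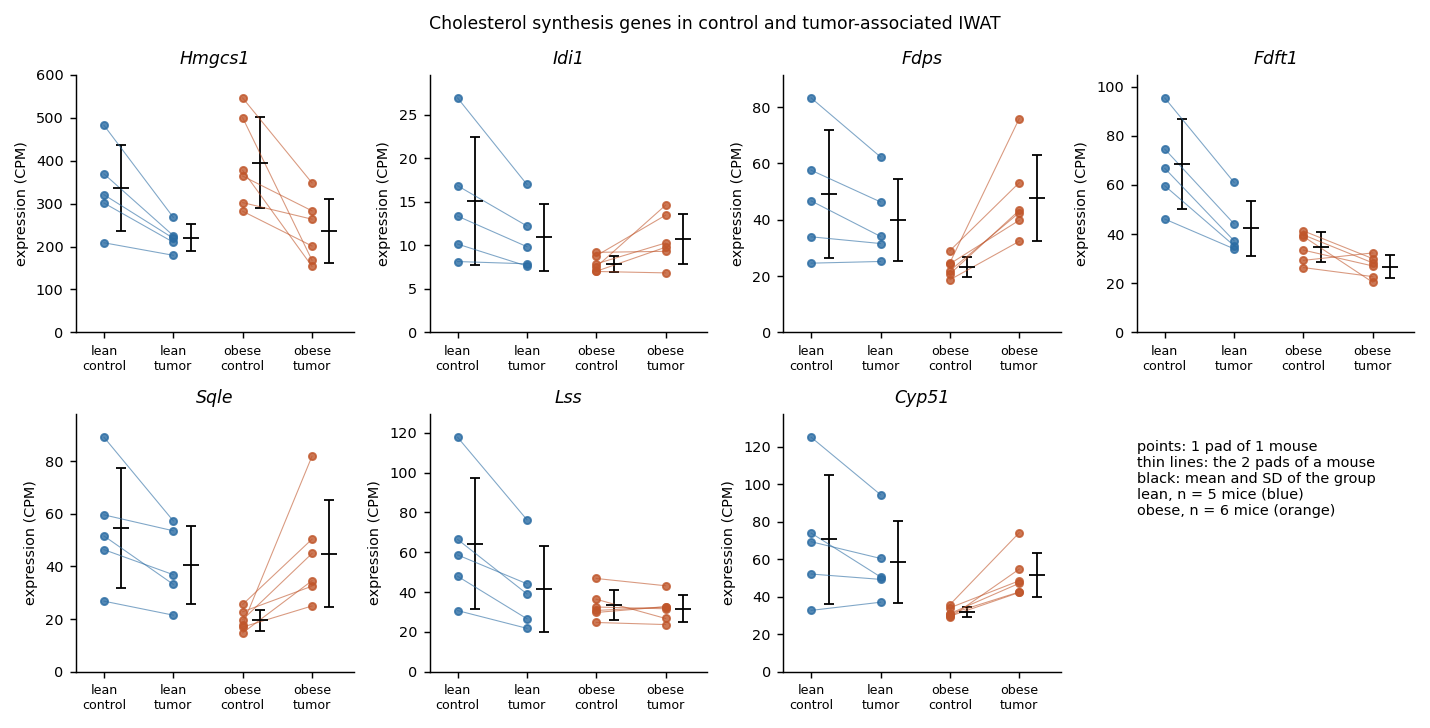
Expression of the 7 members in CPM (vertical axes, from 0) in lean control, lean tumor-associated, obese control and obese tumor-associated IWAT. Each point is 1 pad of 1 mouse, thin lines join the pads of a mouse, and black marks give the mean and SD (n = 5 lean and 6 obese mice). Except for Hmgcs1, obese control points sit low against lean control points, and Fdps, Sqle and Cyp51 go up from there in all 6 obese mice.

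Control IWAT of obese mice held less RNA of most of the pathway than control IWAT of lean mice. Of the 7 members, 6 were called lower and none higher, where 7.53% of all genes tested were called lower and 9.54% higher. The median log2 fold change of the members was -0.97 (0.04 over all genes tested). Hmgcs1, the first enzyme of the set, was the exception.

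Sqle, the squalene epoxidase and a rate-limiting step after squalene, showed the largest difference. In lean control IWAT it was 51.6, 46.4, 59.6, 89.0 and 26.8 CPM in mice 0, 2, 3, 6 and 9. In the 6 obese control libraries the lowest value was 14.7, the median 18.8 and the highest 25.5 CPM. Every obese value lay below every lean value. Sqle was 2.79-fold lower (log2 fold change -1.48, SE 0.31, edgeR adjusted p = 0.00245).

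Fdft1 was the other member whose groups did not overlap. The share of all genes with groups that did not overlap was not counted in any comparison, so a lack of overlap is only a description of the values. Fdft1 was 66.8, 59.6, 74.6, 95.4 and 46.1 CPM in lean control mice 0, 2, 3, 6 and 9 and between 26.4 and 41.3 CPM, with a median of 36.2, in obese control IWAT. Its log2 fold change was -0.97 (SE 0.18, edgeR adjusted p = 0.00107). Cyp51 was 74.0, 52.1, 69.4, 125 and 32.7 CPM in the lean mice in the same order and 28.9 to 35.8 CPM (median 30.9) in the obese mice, so that only lean mouse 9 reached into the obese range. It was 2.23-fold lower (log2 fold change -1.16, SE 0.26, edgeR adjusted p = 0.00414).

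Fdps, at the branch point to prenylation, was 46.7, 33.9, 57.6, 83.2 and 24.6 CPM in lean control mice 0, 2, 3, 6 and 9 and 18.7 to 29.0 CPM (median 23.1) in obese control mice. Lean mouse 9 again overlapped the obese values. Fdps fell by 1.08 (log2, SE 0.27, edgeR adjusted p = 0.00998). Idi1 fell by 0.93 (log2, SE 0.27, edgeR adjusted p = 0.0206), from 8.14 to 26.9 CPM in lean to 7.0 to 9.19 CPM in obese mice, and Lss fell by 0.94 (log2, SE 0.30, edgeR adjusted p = 0.0347), from 30.7 to 118 CPM to 24.7 to 46.8 CPM. Both overlapped between the groups.

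Hmgcs1 was 301, 321, 483, 369 and 209 CPM in lean control mice 0, 2, 3, 6 and 9. In obese control mice it ran from 282 to 546 CPM with a median of 371. The values overlapped almost fully, and the log2 fold change of 0.23 (95% interval -0.21 to 0.67, edgeR adjusted p = 0.526) leaves a fall of the size seen in the other members outside its interval. A difference between Hmgcs1 and the others was not tested as such.

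The spread between mice was also smaller in obese than in lean control IWAT, least so for Hmgcs1, a description with no test. The coefficient of variation between mice was 8.40% for Cyp51, 11.6% for Idi1, 15.6% for Fdps, 17.5% for Fdft1, 20.3% for Sqle and 22.6% for Lss in obese control IWAT, against 48.8%, 49.1%, 46.3%, 26.7%, 41.5% and 50.9% in lean control IWAT. For Hmgcs1 it was 26.9% and 29.8%. Lean mouse 6 was the highest and lean mouse 9 the lowest of the lean control mice for each of the 6 members other than Hmgcs1, for which mouse 3 was the highest.

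The calls for Idi1 and Lss depended on single libraries. Without lean control mouse 6 Idi1 was no longer called (edgeR adjusted p = 0.104). Lss lost its call without any 1 of lean control mice 0, 3 or 6 or obese control mice 0, 1, 2 or 3 (edgeR adjusted p up to 0.164). Without obese control mice 1 and 3, which held B and T cell transcripts, Sqle (-1.36, edgeR adjusted p = 0.0172), Cyp51 (-1.13, 0.0206) and Fdft1 (-0.89, 0.00804) stayed called and Fdps (-0.99), Idi1 (-0.96) and Lss (-0.83) were not, with adjusted p of 0.0507, 0.0536 and 0.136. Without both pads of lean mouse 6, Sqle, Cyp51, Fdft1 and Fdps were called, and Idi1 (-0.62, edgeR adjusted p = 0.0738) and Lss (-0.61, 0.0909) were not. Of 7 adipocyte markers 2 were called higher and 0 lower in obese control IWAT. All 6 luminal epithelium markers had negative log2 fold changes (median -0.92), and 2 were called lower. Their summed CPM was 378 to 962 in obese against 884 to 1582 in lean control libraries. The part of either marker list in the result was not tested.

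The other enzymes of sterol synthesis moved the same way in control IWAT. Of 12, 8 were called lower and 0 higher, and all 12 had negative log2 fold changes (median -0.95). Acat2, which forms acetoacetyl-CoA for Hmgcs1, had the largest, -1.65 (edgeR adjusted p = 0.00162), from 89.8 ± 50.3 CPM (SD, n = 5) to 28.6 ± 6.41 CPM (SD, n = 6). Mvd and Pmvk of the mevalonate branch followed with -1.63 (edgeR adjusted p = 0.00257) and -1.47 (0.00123), and Dhcr7, the last step of one branch to cholesterol, with -1.34 (0.000577). Without obese control mice 1 and 3 the count was 5 of 12, and it was 6 without both pads of lean mouse 6.

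**Figure D2:**
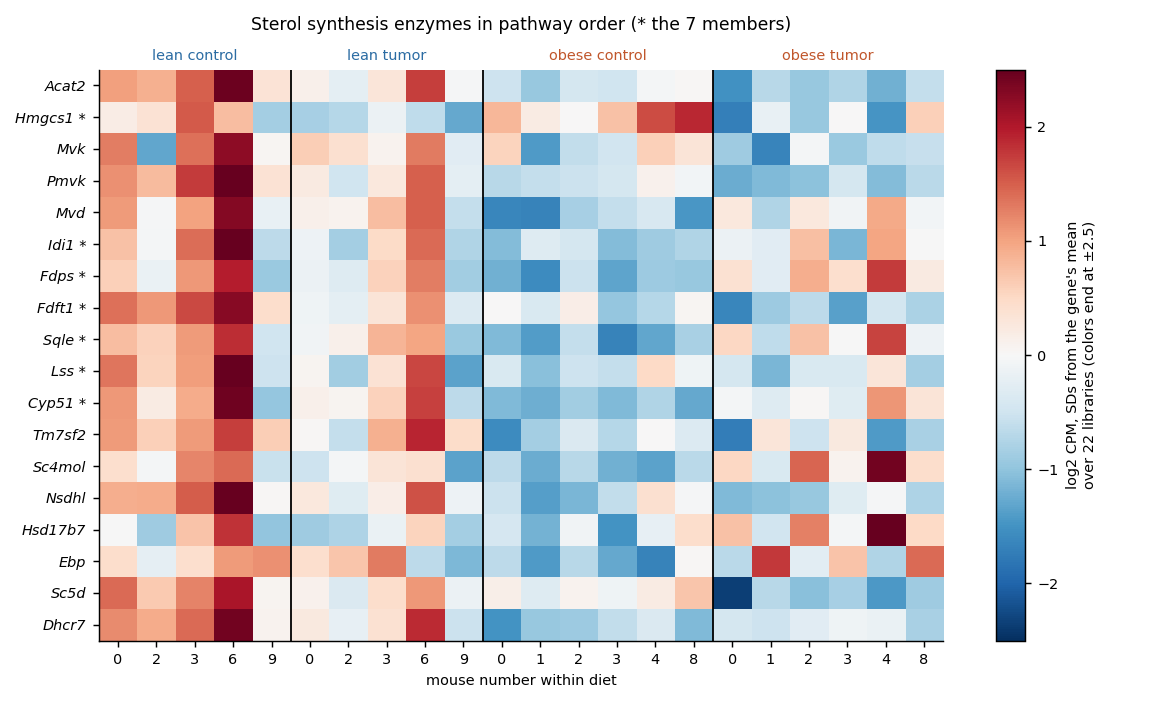
Heat map of sterol synthesis enzymes in pathway order (rows, members starred) over the 22 libraries (columns, by group and mouse number). Color is log2 CPM as SDs from the mean of a gene over all libraries. Lean mouse 6 is high in both pads for most rows, obese control libraries are low for most rows other than Hmgcs1, and in obese tumor-associated libraries Sc4mol, Hsd17b7, Sqle and Fdps are high in mouse 4 while Hmgcs1, Acat2 and Sc5d are low there.

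Around the enzymes, the regulators split. Srebf2 was called lower in obese control IWAT (log2 fold change -0.55, edgeR adjusted p = 0.0337), as were Srebf1 (-1.60, 6.48e-05) and Insig1 (-1.52, 0.0166), which encodes a sterol sensor that holds SREBPs back and is itself an SREBP target. Scap, Insig2 and the proteases Mbtps1 and Mbtps2 were not called. Fatty acid synthesis genes, targets of SREBP1, were called lower in 7 of 7 cases with a median of -4.27, from -2.62 (Me1, edgeR adjusted p = 0.000382) to -5.56 (Elovl6, 2.82e-06).

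Of 6 LXR and efflux genes 2 were called higher, Abcg1 (1.40, edgeR adjusted p = 6.59e-05), a cholesterol exporter, and Mylip (0.77, 0.0378), an LXR-induced ligase that removes lipoprotein receptors. Of 5 esterification and storage genes 3 were called higher, Nceh1 (1.60, edgeR adjusted p = 1.52e-05) and Lipa (0.93, 0.00592), which both hydrolyze cholesteryl esters, and Soat1, which forms them (0.68, 0.00206). Of 8 uptake and transport genes Stard4, a cytosolic sterol carrier, was the only one called, and it was lower (-0.50, edgeR adjusted p = 0.0379). The 7 genes of the isoprenoid branches had edgeR adjusted p of 0.0635 to 0.791. Without obese control mice 1 and 3, edgeR called 2 regulators lower, 1 LXR and efflux gene higher, and 1 uptake and transport gene higher and 1 lower. Without both pads of lean mouse 6 it called 2 regulators lower, 1 LXR and efflux gene higher and 0 uptake and transport genes.

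**Figure D3:**
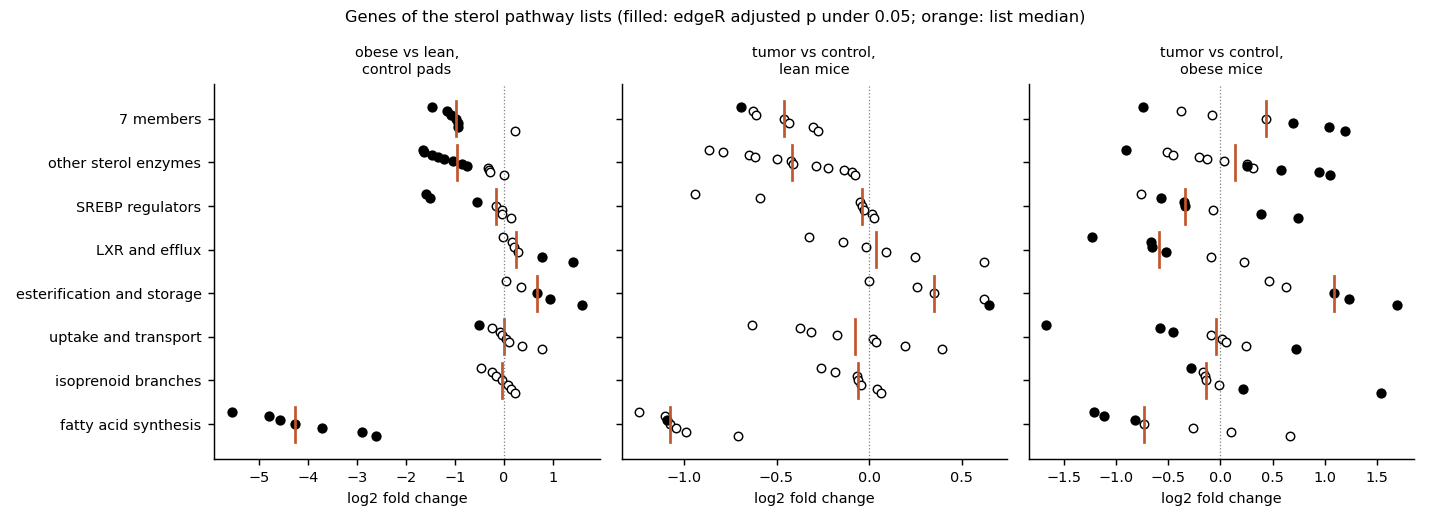
Log2 fold changes (horizontal axes, scales differ between panels) of the genes of 8 lists for obese against lean control IWAT, and for the tumor side against the control side in lean and in obese animals. Each point is a gene, filled where edgeR's adjusted p was under 0.05, and orange lines mark list medians. All members but Hmgcs1 (0.23) and all other sterol enzymes sit below 0 in the left panel, and both lists lie on both sides of 0 in the right panel, where esterification and storage genes lie above 0.

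In lean mice, the members were lower on the tumor side than on the control side of the same animal, by an amount that the test without pairing mostly did not call. Each of the 7 log2 fold changes was negative (median -0.46, 0.01 over all genes tested), and Fdft1 alone was called, where 0.913% of all genes tested were called lower and 3.27% higher. Fdft1 in tumor-associated IWAT of lean mice 0, 2, 3, 6 and 9 was 37.3, 35.3, 44.1, 61.0 and 34.0 CPM, each below the control pad of the same mouse. The group ranges overlapped through mouse 6 on the tumor side and mice 2 (59.6 CPM) and 9 (46.1 CPM) on the control side. Fdft1 fell by 0.69 (log2, SE 0.19, edgeR adjusted p = 0.0423).

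That call was kept in 12 and lost in 10 of the 22 fits that left out 1 library, with log2 fold changes of -0.86 to -0.54. It was lost without any 1 of lean tumor-associated mice 0, 2, 3 or 9, lean control mice 0, 2, 3 or 6, obese tumor-associated mouse 8 or obese control mouse 0, with edgeR adjusted p up to 0.153. It was also lost in the fit without a filter on low counts and when the lean groups were fitted by themselves. With the mouse as a replicate block, which compares the pads of each animal, Fdft1 (-0.69, edgeR adjusted p = 0.00998) and Lss (-0.63, 0.00476) were called. The block called 669 of all 14458 genes tested in lean mice. Lss was 39.1, 26.6, 44.1, 76.3 and 21.8 CPM in the tumor-associated pads of mice 0, 2, 3, 6 and 9, against 66.4, 47.9, 58.6, 118 and 30.7 CPM in their control pads. All 5 mice were lower on the tumor side, with changes of -0.84 to -0.41 on the log2 scale.

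Hmgcs1, Idi1 and Sqle were also lower in 5 of 5 lean mice, and Fdps and Cyp51 in 4 of 5, with mouse 9 the exception for both. Hmgcs1 was 210, 219, 268, 226 and 180 CPM in the tumor-associated pads of lean mice 0, 2, 3, 6 and 9, each lower than at least 4 of the 5 control values. Its log2 fold change was -0.61 (edgeR adjusted p = 0.174, and 0.105 with the block). Sqle was 33.2, 36.8, 53.5, 57.3 and 21.5 CPM on the tumor side of these mice and Cyp51 50.6, 49.3, 60.5, 94.5 and 37.1 CPM, both overlapping the control pads widely. For Sqle the change of a mouse ran from -0.63 to -0.15, for Idi1 from -0.66 to -0.05 and for Cyp51 from -0.55 to 0.18. Pads of one lean mouse were close to each other in rank: across the 5 mice the correlation of log2 CPM between pads was 0.92 (Fdft1) to 0.99 (Hmgcs1), as a description of 5 points that include the high mouse 6 and the low mouse 9. In the 6 obese mice it was 0.05 (Fdft1) to 0.77 (Lss).

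Without the block edgeR called 0 of the 12 other sterol enzymes in lean mice, 4 had an unadjusted p under 0.05, and DESeq2 called 1. All 12 log2 fold changes were negative (median -0.42). With the block, 4 were called lower, Pmvk (-0.86, edgeR adjusted p = 0.00392), Acat2 (-0.80, 0.0189), Nsdhl (-0.59, 0.0362) and Dhcr7 (-0.52, 0.0167). Among regulators and the LXR, uptake and isoprenoid genes the lowest edgeR adjusted p in lean mice was 0.0854, that of Abcg1 (log2 fold change 0.62). Soat1 was called higher (0.65, edgeR adjusted p = 0.0131) and Acaca, the acetyl-CoA carboxylase, lower (-1.09, 0.0257), 1 of the 7 fatty acid synthesis genes. With the mouse as a block 4 of these 7 were called lower and 1 of 6 LXR and efflux genes higher, and without both pads of lean mouse 6, 4 fatty acid synthesis genes were called lower. The 7 adipocyte markers all had negative log2 fold changes in lean mice (median -0.59), 5 of 7 macrophage markers were called higher, and the part of either in the members' levels was not tested.

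In obese mice members were called in both directions on the tumor side. Of the 7 members 3 were called higher (Sqle, Fdps and Cyp51) and Hmgcs1 was called lower, where 26.8% of all genes tested were called higher and 27.7% lower. These shares are high, so that 4 calls among 7 genes are close to the background. The members' median log2 fold change was 0.44 (-0.02 over all genes tested).

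Sqle in obese tumor-associated IWAT ran from 24.96 CPM (mouse 1) through a median of 39.7 to 81.9 CPM (mouse 4), against 14.7 to 25.5 CPM in obese control IWAT. The ranges touched only between mouse 1 on the tumor side and mouse 2 on the control side. Sqle was 2.29-fold higher (log2 fold change 1.19, SE 0.29, edgeR adjusted p = 0.00221), and it was higher in 6 of 6 mice, from 1.43-fold in mouse 8 to 4.60-fold in mouse 4.

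Fdps ran from 32.3 through a median of 42.9 to 75.9 CPM on the tumor side, above every control value (18.7 to 29.0 CPM). It was 2.06-fold higher (log2 fold change 1.04, SE 0.26, edgeR adjusted p = 0.00263), in 6 of 6 mice. Cyp51 ran from 42.3 through 47.8 to 74.1 CPM, also above every control value (28.9 to 35.8 CPM), in 6 of 6 mice (log2 fold change 0.70, SE 0.25, edgeR adjusted p = 0.0210). The Cyp51 call was lost without obese tumor-associated mouse 4 (edgeR adjusted p = 0.0699) and without obese control mice 1 and 3 (0.0687).

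Hmgcs1 went the other way. On the tumor side of obese mice 0, 1, 2, 3, 4 and 8 it was 154, 264, 201, 283, 168 and 348 CPM, against 377, 303, 282, 364, 500 and 546 CPM in their control pads. It was lower in 6 of 6 mice, and the largest changes, -1.57 and -1.29 on the log2 scale, were those of mice 4 and 0. The groups overlapped, and Hmgcs1 fell by 0.74 (log2, SE 0.21, edgeR adjusted p = 0.00671).

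Fdft1 (log2 fold change -0.38, edgeR adjusted p = 0.0723), Idi1 (0.44, 0.153) and Lss (-0.08, 0.838) were not called. Fdft1 ran from 20.4 to 32.3 CPM on the tumor side and was lower in 5 of 6 mice, all but mouse 4. Idi1 ran from 6.83 to 14.6 CPM and was higher in 5 of 6, all but mouse 3. With the mouse as a replicate block both were called, Fdft1 at -0.38 (edgeR adjusted p = 0.0181) and Idi1 at 0.41 (0.0348). The block called 7680 of all 14458 genes tested in obese mice. Fdft1 was called in 5 of 10 alternative settings, the block included, and in 3 of 22 fits without 1 library. Lss had 4 mice lower and 2 higher, and it was not called with the block either (0.510). Ctsb, which shares exon bases with Fdft1, was called higher in these mice (0.52, edgeR adjusted p = 0.0114), opposite in sign to Fdft1.

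**Figure D4:**
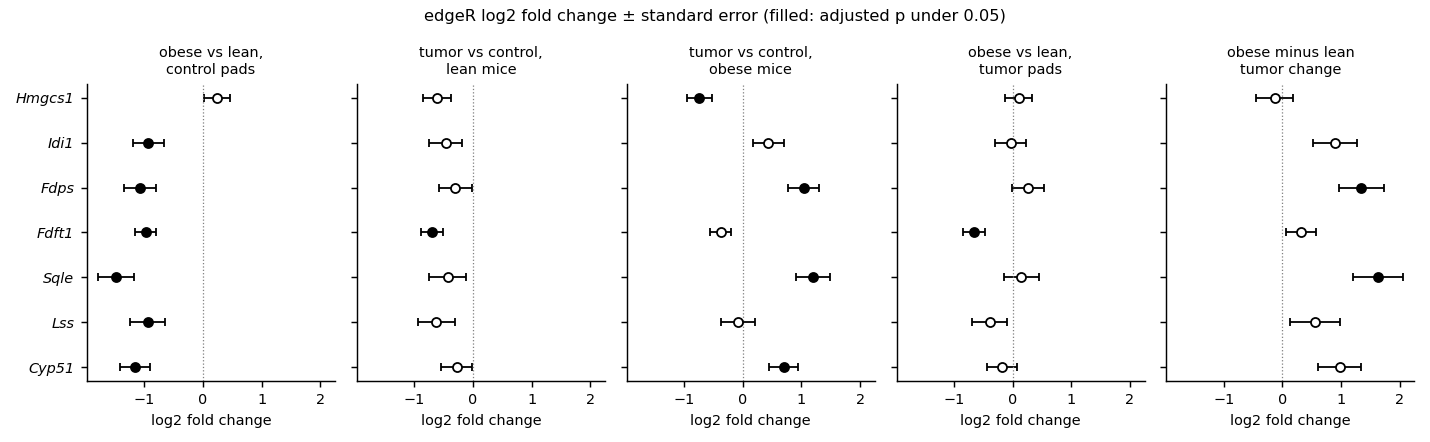
Log2 fold changes of the 7 members (rows) in the 5 comparisons (panels, horizontal axes shared), with bars of 1 standard error and filled points where edgeR's adjusted p was under 0.05. The control pads show 6 filled points left of 0, and in obese mice Fdps, Sqle and Cyp51 are filled right of 0 and Hmgcs1 left of 0.

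Of the 12 other sterol enzymes 4 were called higher and 1 lower in obese tumor-associated IWAT. Of all genes tested 26.8% were called higher and 27.7% lower, so that the share called lower was below the background and the share called higher was not. Called higher were Sc4mol, the sterol methyl oxidase now named Msmo1 (log2 fold change 1.05, edgeR adjusted p = 0.00117), Mvd (0.94, 0.0195), Hsd17b7 (0.58, 0.0357) and Ebp (0.26, 0.0367). Sc5d, the lathosterol oxidase, was called lower (-0.91, edgeR adjusted p = 0.00227), from 149 ± 26.3 CPM to 79.3 ± 20.6 CPM (SD, n = 6 each). Acat2 (-0.51, edgeR adjusted p = 0.171) and Pmvk (-0.46, 0.157) were not called. With the mouse as a block they were called lower, at 0.0179 and 0.00911, Dhcr7 was called higher (0.31, 0.0185), and Ebp was not called (0.0737). Without obese control mice 1 and 3, Sc4mol (0.97, edgeR adjusted p = 0.00800) and Sc5d (-1.04, 0.00257) were the 2 of 12 called.

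Among the regulators Srebf2 was called higher (0.74, edgeR adjusted p = 0.00113), from 53.6 ± 9.76 CPM to 89.6 ± 22.2 CPM (SD, n = 6 each), and so was Mbtps2, the second protease that releases SREBPs (0.38, 0.00448). Srebf1 (-0.57, edgeR adjusted p = 0.0255), Scap (-0.35, 0.00506) and Insig2 (-0.34, 0.00620) were called lower. Stard4 was called higher (0.73, edgeR adjusted p = 0.000766) and Vldlr, a lipoprotein receptor, lower (-1.67, 0.000179), with Osbpl1a and Osbpl5 the other called genes of 8 for uptake and transport, both lower. Of 7 isoprenoid genes 2 were called higher, Pdss1, which builds the ubiquinone tail from farnesyl diphosphate (1.54, edgeR adjusted p = 0.000114), and Pggt1b (0.22, 0.0458), and Ggps1 was called lower (-0.28, 0.00466). Among all genes tested 26.8% were called higher and 27.7% lower here, so calls in these short lists cannot be read as a trait of a list. Without obese tumor-associated mice 0, 2 and 4 edgeR called 0 regulators higher, so that the calls of Srebf2 and Mbtps2 were lost, and 1 lower, while for uptake and transport it again called 1 gene higher and 3 lower.

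Of 6 LXR and efflux genes 4 were called lower, from Nr1h3, which encodes LXR alpha (-0.52, edgeR adjusted p = 0.00800), to Mylip (-1.23, 0.000331). The background in this comparison was again 26.8% of all genes tested called higher and 27.7% lower. Of 5 esterification and storage genes 3 were called higher, from Soat1 (1.09, edgeR adjusted p = 4.68e-06) to Soat2 (1.69, 0.00188). Fatty acid synthesis genes were not called higher: Me1 (-1.22, edgeR adjusted p = 0.0161), Acss2 (-1.12, 0.0315) and Fasn (-0.82, 0.0488) were called lower and the other 4 of 7 were not called. Without obese tumor-associated mice 0, 2 and 4 edgeR called 1 LXR and efflux gene higher and 1 lower and 0 of 7 fatty acid synthesis genes, and 3 of 5 esterification and storage genes higher.

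The level of Sqle in obese tumor-associated IWAT followed the order of the mice in other transcripts, and no other member had exactly that order. Sqle was highest in mouse 4, then in mice 2, 0, 3, 8 and 1, and Srebf2 had the same order. The summed CPM of the 10 germline and embryonic genes had that order too, 999.7 in mouse 4, 509 in mouse 2, 441 in mouse 0, 171 in mouse 3, 102 in mouse 8 and 40.1 in mouse 1, against 0.348 to 9.09 in lean libraries and 5.99 to 85.7 in obese control libraries. The 6 proliferation markers summed to 505 (mouse 1) to 1677 CPM (mouse 4), with mice 4, 0 and 2 the highest, against 122 to 264 CPM in obese control libraries.

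Each member other than Hmgcs1 was highest in mouse 4, and Fdps, Lss and Cyp51 were, like Sqle, lowest in mouse 1. Hmgcs1 was lowest in mice 0 and 4, the mice with the lowest adipocyte marker sums, 2893 and 1703 CPM, and highest in mouse 8, with 9380 CPM of adipocyte markers, while mouse 1, with the highest adipocyte sum (10554 CPM), had the third highest Hmgcs1 level. All 7 adipocyte markers were called lower in obese tumor-associated IWAT (median log2 fold change -1.29), all 6 proliferation markers higher and 5 of 6 luminal epithelium markers lower. The part of these transcripts in the members' levels was not tested beyond leaving out libraries.

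Without the tumor-associated libraries of obese mice 0, 2 and 4, which leaves 3 tumor-associated libraries, the 7 members had edgeR adjusted p of 0.0739 to 0.734 against obese control IWAT. The log2 fold changes were 0.72 for Fdps (edgeR adjusted p = 0.0739), 0.64 for Sqle (0.117), 0.55 for Cyp51 (0.174) and -0.41 for Hmgcs1 (0.183). Each of these 4 kept its direction and none its call. Of the 12 other sterol enzymes 1 was called.

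**Figure D5:**
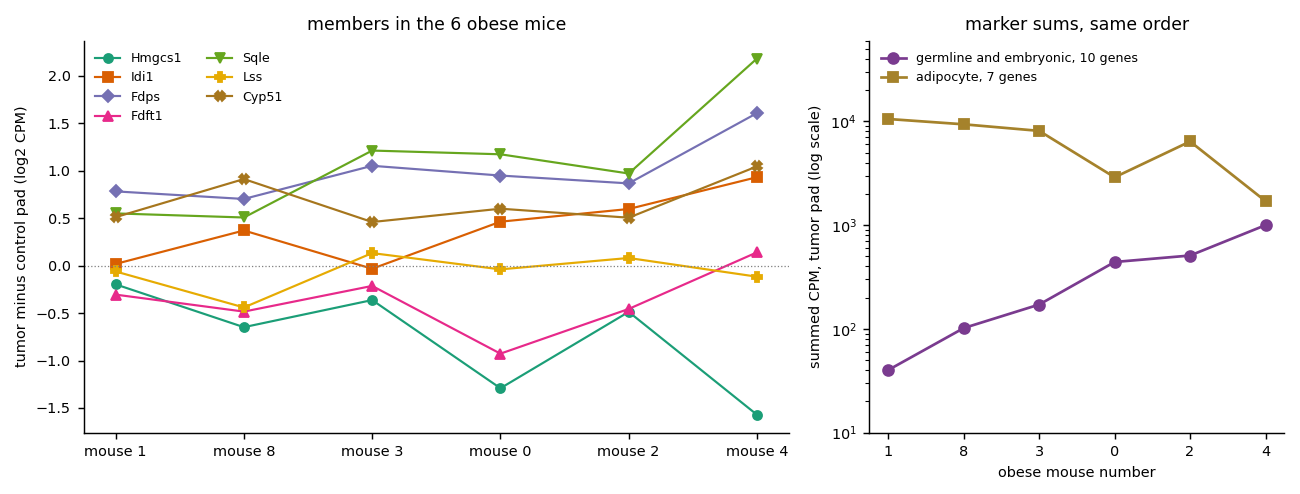
Left, the tumor-associated minus the control pad (log2 CPM) of each member in the 6 obese mice, ordered by the germline and embryonic sum of the tumor-associated pad. Right, the summed CPM (log scale) of the 10 germline and embryonic genes and of the 7 adipocyte markers in the same pads. Sqle and Fdps are highest in mouse 4 at 2.18 and 1.61, Hmgcs1 lowest there at -1.57, and the adipocyte sum is lowest in that mouse.

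Between the tumor-associated pads of obese and lean mice, Fdft1 was the only member called, lower in obese mice, where 22.4% of all genes tested were called lower and 24.7% higher. Its values in obese tumor-associated IWAT, 20.4 to 32.3 CPM with a median of 27.7, lay below every lean value (34.0 to 61.0 CPM). Fdft1 fell by 0.66 (log2, SE 0.18, edgeR adjusted p = 0.00572), and the call held in each of the 22 fits that left out 1 library. The other 6 members had log2 fold changes from -0.39 (Lss) to 0.26 (Fdps) with edgeR adjusted p of 0.291 to 0.935 and overlapping groups. In the same comparison 6 of 6 luminal epithelium markers (median log2 fold change -2.46, 188 to 492 CPM summed in obese against 867 to 1860 in lean mice) and 4 of 5 mammary basal markers (median -2.47) were called lower. All 6 proliferation markers were called higher (median 2.35, 505 to 1677 against 160 to 516 CPM). Their part in the level of Fdft1 was not tested. The paper reports larger tumors in obese than in lean mice, so diet and tumor size cannot be told apart in this comparison.

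Of the 12 other sterol enzymes 5 were called lower and 1 higher on the tumor side of obese against lean mice. The background for this and the lists below was 22.4% of all genes tested called lower and 24.7% higher. Acat2 (-1.37, edgeR adjusted p = 0.00197), Pmvk (-1.06, 0.00430) and Sc5d (-1.02, 0.00151) had the largest differences, with Tm7sf2 (-0.78) and Nsdhl (-0.74), and Sc4mol was higher (0.61, 0.0488). Fatty acid synthesis genes stayed lower in 7 of 7 cases (median -3.65). Srebf1 was lower (-1.58, edgeR adjusted p = 2.46e-05), as were Insig1 (-1.34, 0.0124) and Scap (-0.40, 0.00294), and Srebf2 was not called (0.23, 0.284). Of the 5 esterification and storage genes 4 were called higher, up to 2.21 for the hydrolase Nceh1 (edgeR adjusted p = 3.12e-07). Abcg1 was higher (1.00, 0.000308) and Apoe, the lipoprotein ligand, lower (-0.75, 0.0274). Without obese tumor-associated mice 0, 2 and 4, 2 of the 12 other sterol enzymes were called, both lower, with 2 LXR and efflux genes higher and 0 lower.

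The change on the tumor side was compared between diets as the obese minus the lean change. Tumors were larger in obese mice, so diet and tumor size cannot be told apart here either. Sqle (log2 difference 1.63, SE 0.43, edgeR adjusted p = 0.0463) and Fdps (1.34, SE 0.39, 0.0488) were called, 2 of 7 members, where 2.58% of all genes tested were called higher and 2.34% lower. For both, all 6 obese mice were higher on the tumor side, and 5 of 5 (Sqle) or 4 of 5 (Fdps) lean mice were lower. Cyp51 (0.98, edgeR adjusted p = 0.0809), Idi1 (0.90, 0.110), Lss (0.55, 0.369) and Fdft1 (0.31, 0.398) had positive differences and were not called. For Hmgcs1 the difference was -0.13 (95% interval -0.75 to 0.49, edgeR adjusted p = 0.794).

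Both calls lay close to the threshold. When 1 library was left out, the call of Sqle was lost in 15 of 22 fits (edgeR adjusted p 0.0122 to 0.0919), and kept without lean tumor-associated mouse 6, lean control mouse 9, obese tumor-associated mouse 1, 3, 4 or 8 or obese control mouse 2. That of Fdps was lost in 16 of 22 (0.0171 to 0.1005), the same fits and the one without obese tumor-associated mouse 4. Calls over all genes moved in such fits too. They were 711 in the main fit, 1 without lean or obese tumor-associated mouse 0, and 3568 without obese tumor-associated mouse 1. The log2 differences ran from 1.36 to 1.80 for Sqle and from 1.07 to 1.56 for Fdps over the 22 fits. Without obese tumor-associated mice 0, 2 and 4 the differences were 1.09 (Sqle, 0.195) and 1.03 (Fdps, 0.209). With the mouse as a replicate block 4 members were called, Sqle (1.53, edgeR adjusted p = 0.0238), Fdps (1.26, 0.0138), Cyp51 (0.89, 0.0278) and Lss (0.55, 0.0451). The block called 604 of all 14458 genes tested in the obese minus lean change. Of the other sterol enzymes Sc4mol was called (1.47, edgeR adjusted p = 0.0396), and with the block Mvd (1.30, 0.0243) and Dhcr7 (0.84, 0.0238) as well.

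Over the 22 libraries pairwise correlations of log2 CPM among the 6 members other than Hmgcs1 had a median of 0.79 (0.40 to 0.95, 15 pairs), while the 6 pairs with Hmgcs1 had a median of -0.09 (-0.28 to 0.31). On deviations from the group means the medians were 0.83 without and 0.24 with Hmgcs1. Within lean control IWAT (n = 5) the medians were 0.97 without and 0.74 with Hmgcs1, within lean tumor-associated IWAT (n = 5) 0.96 and 0.58, and within obese tumor-associated IWAT (n = 6) 0.73 and -0.54. Within obese control IWAT (n = 6) the median without Hmgcs1 was 0.38 (-0.44 to 0.90) and with it -0.03. These libraries share mice, pads and the high mouse 6, so the values describe this set of libraries.

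Outside the 7 genes, the transcripts closest to their mean standardized log2 CPM over the 22 libraries were Hk2 (Pearson's r = 0.93), a hexokinase, Mrps27 (0.91) and Ppp2r5b (0.90), followed by Dhcr7, Acsl3, Ndufa12, Uqcrq, Ndufv2, Tufm and Mvd (0.87 to 0.88). Dhcr7 and Mvd are sterol enzymes, Acsl3 activates fatty acids, and Ndufa12, Uqcrq and Ndufv2 are respiratory chain subunits. On deviations from the group means Hk2 was again first (0.90), then Tubb4b, Lactb2, Ppp2r5b and Tubg1 (0.87 to 0.89). Of the 12 other sterol enzymes 5 were among the 100 closest of 14451 genes over all libraries and 7 on deviations from group means, while Ebp had 0.30 and -0.01. Without the 6 obese tumor-associated libraries 2 of the 10 closest genes, Hk2 and Mrps27, were among the 10 named first. The LXR and efflux genes had a median correlation of -0.36, with 0 of 6 among the 100 closest.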

How the data were processed

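RNA from tumor-associated and control IWAT of 5 lean and 6 obese mice was depleted of ribosomal RNA and sequenced. The authors checked reads with FastQC, filtered and trimmed with prinseq, used STAR (2.4.0f per the labels) for mapping to mm10 and HTSeq for counting per gene, and the deposited values are raw counts per gene. The strand setting and annotation of the counting are not given in the sources used here. Groups and mouse numbers were taken from the labels, and each number is 1 mouse with 2 pads. Lines of the table that name no gene held 57.0% to 65.9% of its reads and were left out of library sizes and tests.

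Genes were filtered by edgeR's filterByExpr, libraries scaled by TMM, and all 4 groups fitted in 1 quasi-likelihood model without the mouse as a block (edgeR 4.0.16, limma 3.58.1, R 4.3.3), with Benjamini-Hochberg adjustment over 14458 genes and calls at 0.05. The 95% intervals are normal intervals from the SE. Correlations used log2 CPM with a prior count of 2. Exon lengths and positions came from GENCODE M21 (GRCm38), promoters from RefSeq (GRCm38.p6) and near-identical copies from BLAST 2.17.0. The test was checked on simulated counts. Alternatives were DESeq2 1.42.0, upper-quartile scaling, library totals, other filters, the compared groups alone, the mouse as a replicate block and leaving out each library. Pads of the same mouse deviated together in 5 of 5 lean pairs (median r = 0.51) and 4 of 6 obese pairs (0.17) at r over 0.1, against -0.12 and -0.07 for pads of different mice, and the pairing itself comes from the labels. Within each group, every pair of libraries differed beyond sampling noise (smallest chi-square per degree of freedom 5.77).

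The members and the gene lists were chosen with earlier results of these data known. Named genes were the members in full, the called genes with the largest and smallest change of each pathway list, and the 10 genes closest to the members' mean. Further genes of the lists were named after their values were seen. Not all genes of the lists, or of those closest on deviations from group means, are reported here by name.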

Additional observations from a re-analysis of the deposited data

Results flagged for a closer look

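Fdps and Sqle differed between the diets in how they changed on the tumor side, by the test of the difference itself. The obese minus lean change was 1.34 for Fdps (log2, edgeR adjusted p = 0.0488) and 1.63 for Sqle (0.0463). All 6 obese mice were higher on the tumor side for both genes, while 4 of 5 (Fdps) and 5 of 5 (Sqle) lean mice were lower. Both calls were lost in most fits with 1 library left out, in 16 of 22 for Fdps and 15 of 22 for Sqle. In most of these fits calls over all genes fell as well, from 711 to as few as 1. In 28 sets of values, 7 members in 4 groups, no library stood apart from its group by Dixon's criterion.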

How the results depend on the processing

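Of 1099 values of single members under other settings, 999 kept their direction and their side of the threshold, 71 lost and 14 gained a call, and 15 turned direction, none of them called. Counts of calls that changed are given here for the 7 members and the 12 other sterol enzymes, and not all of the smaller changes are listed. With DESeq2, 1 other enzyme was called in lean mice and 2 in the obese minus lean change. With upper-quartile scaling, 5 members and 3 other enzymes were called in obese tumor-associated against control IWAT, and 1 member (Sqle) in the obese minus lean change. With at least 10 counts in every library, 5 members were called in obese tumor-associated against control IWAT. With no filter on low counts, 0 members were called in lean mice, and 0 members and 0 other enzymes in the obese minus lean change, where 18 of all 19839 genes tested were called against 711 before. In the fit to the lean groups alone, 0 members were called (all genes 1437 against 605). DESeq2 called 2365 genes in the obese minus lean change and 918 in lean mice.

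With the mouse as a replicate block, 2 members and 4 other enzymes were called in lean mice, and 4 members and 3 other enzymes in the obese minus lean change. In obese mice 6 members were called against 4, and the pairing ended no call of a member. Of all 14458 genes tested, the block called 669 in lean mice, 7680 in obese mice and 604 in the obese minus lean change.

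Settings chosen after seeing the data left out libraries. Without obese control mice 1 and 3, 3 members and 5 other enzymes were called between control pads, 2 other enzymes in obese tumor-associated against control IWAT and 0 members in the obese minus lean change. Without obese tumor-associated mice 0, 2 and 4, 0 members and 1 other enzyme were called against obese control IWAT, 2 other enzymes between tumor-associated pads, and 0 members and 0 other enzymes in the obese minus lean change, where 10 of all genes were called. There Hmgcs1 turned to 0.21, and between tumor-associated pads Fdps turned to -0.056 and Sqle to -0.40. Without both pads of lean mouse 6, 4 members and 6 other enzymes were called between control pads and 5 members in obese tumor-associated against control IWAT. In lean mice 2 other enzymes were called, and in the obese minus lean change 0 members and 0 other enzymes. Idi1 and Cyp51 turned to 0.19 and 0.062 between tumor-associated pads in that setting. The cause of these changes was not tested.

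With each of the 22 libraries left out in turn, 4 to 6 members and 6 to 9 other enzymes were called between control pads, 0 to 1 and 0 to 3 in lean mice, 4 to 5 and 3 to 5 in obese mice, 1 and 3 to 9 between tumor-associated pads, and 0 to 3 and 0 to 3 in the obese minus lean change. Calls over all genes in the obese minus lean change ran from 1 to 3568 in these fits. The log2 fold changes that turned direction ran from -0.52 to 0.033 for Cyp51 in lean mice and -0.20 to 0.042 for Lss in obese mice. Between tumor-associated pads they ran from -0.041 to 0.20 for Hmgcs1, -0.15 to 0.19 for Idi1, -0.12 to 0.31 for Sqle and -0.32 to 0.063 for Cyp51. Depth limits Idi1 most, which had 43 to 153 counts per library.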

Other observations

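Across the 22 libraries fatty acid synthesis genes had positive correlations with the members' mean, and sterol esterification and storage genes, hydrolases of cholesteryl esters among them, had negative ones. The 7 fatty acid synthesis genes had correlations of 0.54 to 0.76 with the mean of the members (median 0.63), and 1 of them was among the 100 closest genes. The 5 esterification and storage genes had correlations of -0.65 to -0.20 (median -0.38). The 7 SREBP pathway regulators ranged from -0.18 to 0.62 (median 0.27). These values describe 22 libraries from 11 mice that differ by diet and pad, and they carry no test.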
